A study of Drosophila melanogaster with 6 samples.

Results

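Tetraspanins are small membrane proteins that cross the membrane several times and carry a large outer loop with conserved cysteines. They gather other proteins (integrins, adhesion proteins, proteases, receptors) into patches of the cell membrane, and they are abundant on late endosomes and exosomes. In Drosophila many of the genes lie side by side in the Tsp42E cluster, and the best studied members act in the gut barrier, in Notch signalling and at synapses. The family was taken here as every probe set whose only gene symbol starts with Tsp followed by a digit. This gave 32 genes with 1 probe set each, out of 11983 genes measured by a probe set of their own. Of these, 16 lie in the Tsp42E cluster and 16 elsewhere, and 18 are on chromosome arm 2R. Tsp66A and Tsp42Eb share their probe sets with other genes and are not members, and neither is Tsp, which encodes thrombospondin.

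The series holds 6 Affymetrix expression arrays of RNA from whole male third-instar larvae of w1118, a white-eyed laboratory strain. The 3 high-sucrose arrays hold offspring of mothers fed 1 M sucrose for 7 days after eclosion, and the 3 control arrays hold offspring of mothers fed 0.15 M sucrose for the same time. By the protocol and the sample characteristics, all mothers were mated to males on control food and all offspring grew on control food. The sample titles instead call the larvae themselves reared on high sugar or on control food, so the labels do not settle whether the groups differ by the mother's diet alone. The labels name both mid-stage and wandering larvae, and they speak of biological replicates without saying whether these came from separate mothers or cultures, so p-values measure the spread between these arrays.

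Upper quartiles of the arrays were 212.8 to 216.3 intensity units in high-sucrose and 218.2 to 224.2 in control arrays (exact permutation test, two-sided, p = 0.1, the smallest that 3 against 3 allows). A small shift of bright probe sets toward lower values thus went with the maternal diet, and the median log2 difference over all genes was -0.035 (high sucrose minus control, as throughout). Markers of the fat body (Lsp2, Fbp1), the salivary gland (Sgs3), muscle (Tm2, bt) and the midgut (mex1) were bright in both groups. Intensities compare 1 probe set between arrays and do not rank genes.

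Of the 32 tetraspanin genes, 4 fell in the offspring of high-sucrose mothers (Tsp42Er, Tsp29Fb, Tsp42Ec and Tsp29Fa), 0 rose, and 28 did not pass the threshold of 0.05 on the adjusted p from limma. Over all genes, 0.809% fell and 0.0668% rose by the same rule. At an unadjusted p under 0.05, 10 members were lower and 0 higher, while 10.5% and 4.06% of all genes were. In 13 members every high-sucrose array lay below every control array, which is 40.6% of the family against 14.5% of all genes, and in 1 member, Tsp42A, every high-sucrose array lay above, against 6.73% of all genes. Since bright probe sets are called more often, the 23 members in the upper 50% of genes by mean were also read against genes of equal rank. Among those 23, 4 fell, against 1.52% of bright genes, and 10 lay lower without overlap, against 20.5% of bright genes. The arrays measure whole larvae, so fewer cells of a type and less RNA per cell cannot be told apart.

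The family's median log2 difference was -0.098, beside -0.035 over all genes, with 21 members below 0, as were 59.7% of all genes, and 11 above. The range ran from -0.58 for Tsp42Er to 0.29 for Tsp33B. For the 23 members in the upper 50% by mean the median was -0.099, beside -0.049 over all genes in that upper 50%. Of those 23, 60.9% lay below 0, a smaller share than the 65.4% of genes of equal rank. The medians of the 16 cluster genes and of the 16 genes elsewhere were -0.098 each, and each set held 2 of the 4 genes that fell. The sets differed in other counts. At an unadjusted p under 0.05, 7 cluster genes (43.75%) and 3 genes elsewhere (18.75%) were lower. Below 0 lay 9 cluster genes and 12 elsewhere. The sets also differed in signal, with 15 cluster genes and 8 elsewhere in the upper 50% by mean. Under quantile normalisation and cyclic loess the family's median was -0.056 and -0.059, beside medians over all genes of 0.0058 and 0.0018.

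**Figure D1:**
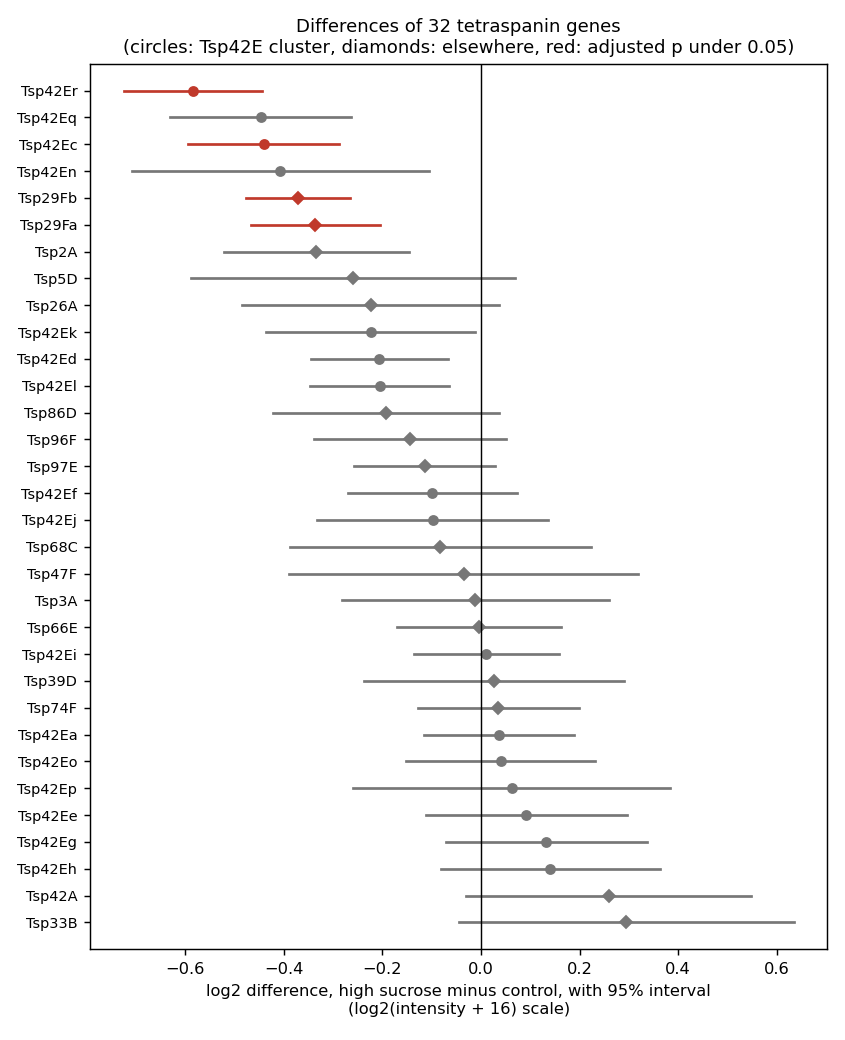
Log2 difference (high sucrose minus control, on log2(intensity + 16)) of each of the 32 tetraspanin genes with its 95% interval, ordered by size. Circles are genes of the Tsp42E cluster, diamonds genes elsewhere, and red marks an adjusted p under 0.05; the 4 red genes all lie below 0, between -0.58 and -0.34.

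Tsp42Er, the last gene of the cluster, had intensities of 386.0, 420.7 and 397.3 in high-sucrose arrays, against 575.7, 624.6 and 629.3 in control arrays. Every high-sucrose value was well under the lowest control value, and the high-sucrose mean was 65.8% of the control mean. The log2 difference was -0.58 ± 0.062 (SE, n = 3 each; 95% interval -0.72 to -0.44; adjusted p = 0.00622). It passed under 15 of the 17 settings run, and missed without control array 2 (adjusted p = 0.0729) and without the intensity trend in the variances (0.133).

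Its neighbour Tsp42Eq had intensities of 784.3, 698.8 and 827.4 in high-sucrose arrays, against 1035.3, 973.1 and 1158.5 in control arrays. The groups did not overlap, and the difference of -0.45 ± 0.081 (95% interval -0.63 to -0.26) just missed the threshold (adjusted p = 0.0532). It passed with median centring (adjusted p = 0.0354), with the replicate block (0.0354), with array weights (0.0387) and among the brighter 50% of probe sets (0.0436). Beyond the pair, the next measured genes on the far side of the cluster, CG12836, CG12831 and esn, had overlapping groups. Of these CG12836, next to Tsp42Er, was close to background (1.83 ± 0.94 in high-sucrose and 2.78 ± 3.08 in control arrays). It could therefore not show a modest difference. The cytochrome P450 gene Cyp9b1, the fourth, lay lower without overlap and did not pass (194.3 ± 23.1 in high-sucrose and 246.3 ± 34.0 in control arrays; log2 difference -0.32, adjusted p = 0.28). The cytochrome P450 gene Cyp9b2, the fifth, fell (2796 ± 155 in high-sucrose and 3833 ± 132 in control arrays; adjusted p = 0.0115, but 0.0924 without control array 2 and 0.0507 without control array 3). Pgant3, which adds sugars to secreted proteins and lies just before Tsp42Eq, was at 191.2 ± 16.9 in high-sucrose and 205.8 ± 17.9 in control arrays (adjusted p = 0.702).

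Tsp42Ec, near the other end of the cluster, had intensities of 1092.9, 947.5 and 1087.3 in high-sucrose arrays, against 1348.2, 1428.4 and 1479.9 in control arrays. All 3 high-sucrose arrays were lower, with array 2 the lowest, and the mean was 73.5% of the control mean. The difference was -0.44 ± 0.068 (adjusted p = 0.0279), and it missed under quantile normalisation (adjusted p = 0.0713), cyclic loess (0.0542) and the replicate block (0.0626), without the intensity trend (0.216), and without high-sucrose array 1 (0.062) or 3 (0.0776) or control array 2 (0.135) or 3 (0.118).

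The next gene in order, Tsp42Ed, had intensities of 2113, 2242 and 2154 in high-sucrose arrays, against 2337, 2476 and 2715 in control arrays. These groups did not overlap either, but lay closer together (-0.21 ± 0.061; 95% interval -0.34 to -0.068; adjusted p = 0.209). Tsp42Ee, the gene after it, with a described role at the nerve-muscle synapse, had intensities of 2386, 1956 and 2443 in high-sucrose arrays, against 2283, 2117 and 1944 in control arrays. Its groups overlapped widely, and the interval of its difference ran from -0.11 to 0.30.

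In the second part of the cluster 3 more genes lay lower in every high-sucrose array without passing. Tsp42El was at 527.0, 571.1 and 532.1 in high-sucrose arrays and at 592.4, 662.9 and 632.6 in control arrays (adjusted p = 0.224). Tsp42En, a dim probe set, was at 39.3, 41.9 and 43.7 in high-sucrose arrays and at 61.1, 49.3 and 72.5 in control arrays (adjusted p = 0.255). Tsp42En had an SD of 2.17 in the high-sucrose arrays and of 11.6 in the control arrays, so its spread lay in the control group. Tsp42Ek was at 2641, 2048 and 2651 in high-sucrose arrays and at 2945, 2864 and 2713 in control arrays (adjusted p = 0.373). In Tsp42Ek high-sucrose array 2 lay far below the other two: without it the log2 difference was -0.10, against -0.22 with all arrays.

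Besides Tsp42Ee, 8 further members in the cluster had overlapping groups. Tsp42Ej, known as Sunglasses, a lysosomal protein that helps to degrade rhodopsin in the fly eye, was at 268.3, 201.5 and 264.6 in high-sucrose arrays and at 269.5, 251.9 and 262.2 in control arrays. Only high-sucrose array 2 stood below the others for this gene, as it did for Tsp42Ek, which overlaps it on the chromosome. Tsp42Ea, Tsp42Ef, Tsp42Eg, Tsp42Eh, Tsp42Ei, Tsp42Eo and Tsp42Ep had log2 differences from -0.099 to 0.14, with adjusted p from 0.59 to 0.962. The gene lbm (late bloomer), the cluster's tetraspanin named for its part in synapse formation by motor axons, was at 98.9, 73.1 and 143.9 in high-sucrose arrays and at 121.4, 102.7 and 91.3 in control arrays. Its high-sucrose arrays were spread more widely than the whole difference between the groups (adjusted p = 0.964). A probe set shared by Tsp42Eb and CG30160 was at 386.4, 452.5 and 394.4 in high-sucrose and 446.7, 488.1 and 427.3 in control arrays (adjusted p = 0.509).

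Read in chromosome order, the genes that lay lower without overlap thus came in 4 places, Tsp42Ec with Tsp42Ed, Tsp42Ek with Tsp42El, Tsp42En alone, and Tsp42Eq with Tsp42Er, with overlapping genes between them. From its first to its last Tsp42E gene the cluster spans 27 genes annotated in RefSeq, and 24 of them code for proteins. The annotation shows overlaps of Tsp42Ej with Tsp42Ek, of Tsp42Eo with Tsp42Ep, of Tsp42Ei with CG33914, and of Tsp42Ea with CG30159 and Tsp42Eb. The 5 measured genes before Tsp42Ea (Cyp6u1, Ufsp1, vimar, CG30156 and CG17002) had log2 differences from -0.10 to 0.14, and 0 of them passed.

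**Figure D2:**
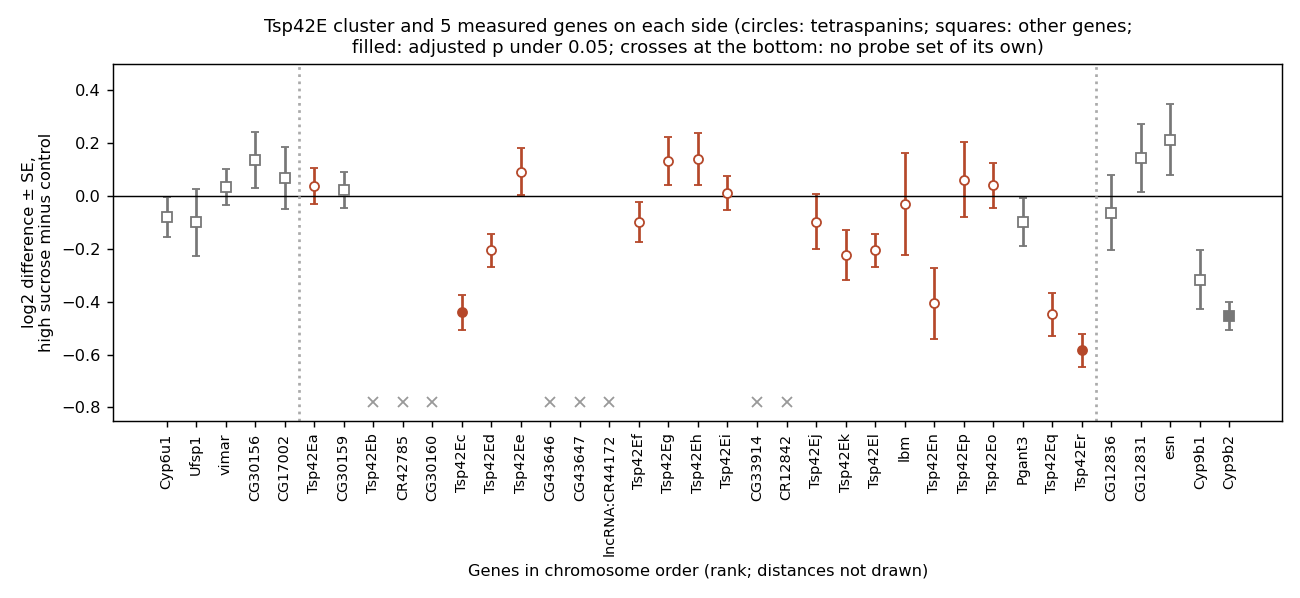
Log2 difference ± SE of the genes of the Tsp42E cluster and of 5 measured genes on each side, in chromosome order by rank; circles are tetraspanins, squares other genes, filled symbols an adjusted p under 0.05, and crosses genes without a probe set of their own. Tsp42Ec and Tsp42Er are the filled circles, at -0.44 and -0.58, and Cyp9b2 in the right flank is the filled square, at -0.45.

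Outside the cluster, the pair Tsp29Fa and Tsp29Fb on chromosome arm 2L fell. These 2 genes are next to each other, with an antisense RNA gene annotated over Tsp29Fa. The protein-coding gene Argl is annotated as overlapping Tsp29Fb. Tsp29Fb had intensities of 1787, 1874 and 1827 in high-sucrose arrays, against 2299, 2426 and 2384 in control arrays. By the suffix of its name this probe set may match several transcripts, and whether it also reads Argl was not tested. Both groups were tight and far apart, and the mean was 77.2% of the control mean. The log2 difference was -0.37 ± 0.047 (95% interval -0.48 to -0.26; adjusted p = 0.0125), and it passed under all 3 other scalings (adjusted p up to 0.0304). It missed without high-sucrose array 1 (0.062) or 3 (0.071), without control array 2 (0.102) or 3 (0.056), and without the intensity trend (0.214).

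Tsp29Fa had intensities of 2221, 2553 and 2329 in high-sucrose arrays, against 2921, 2998 and 3045 in control arrays. Its high-sucrose arrays were spread more widely than those of Tsp29Fb, with array 2 nearest to the control values. The difference was -0.34 ± 0.058 (95% interval -0.47 to -0.20; adjusted p = 0.0419). This call was the least firm of the 4. It was lost under all 3 other scalings (adjusted p from 0.0688 to 0.111), with the replicate block (0.0865), without the intensity trend (0.273), and on leaving out any 1 array but high-sucrose array 2 (0.0899 to 0.168). Without that array it had an adjusted p of 0.0145.

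**Figure D3:**
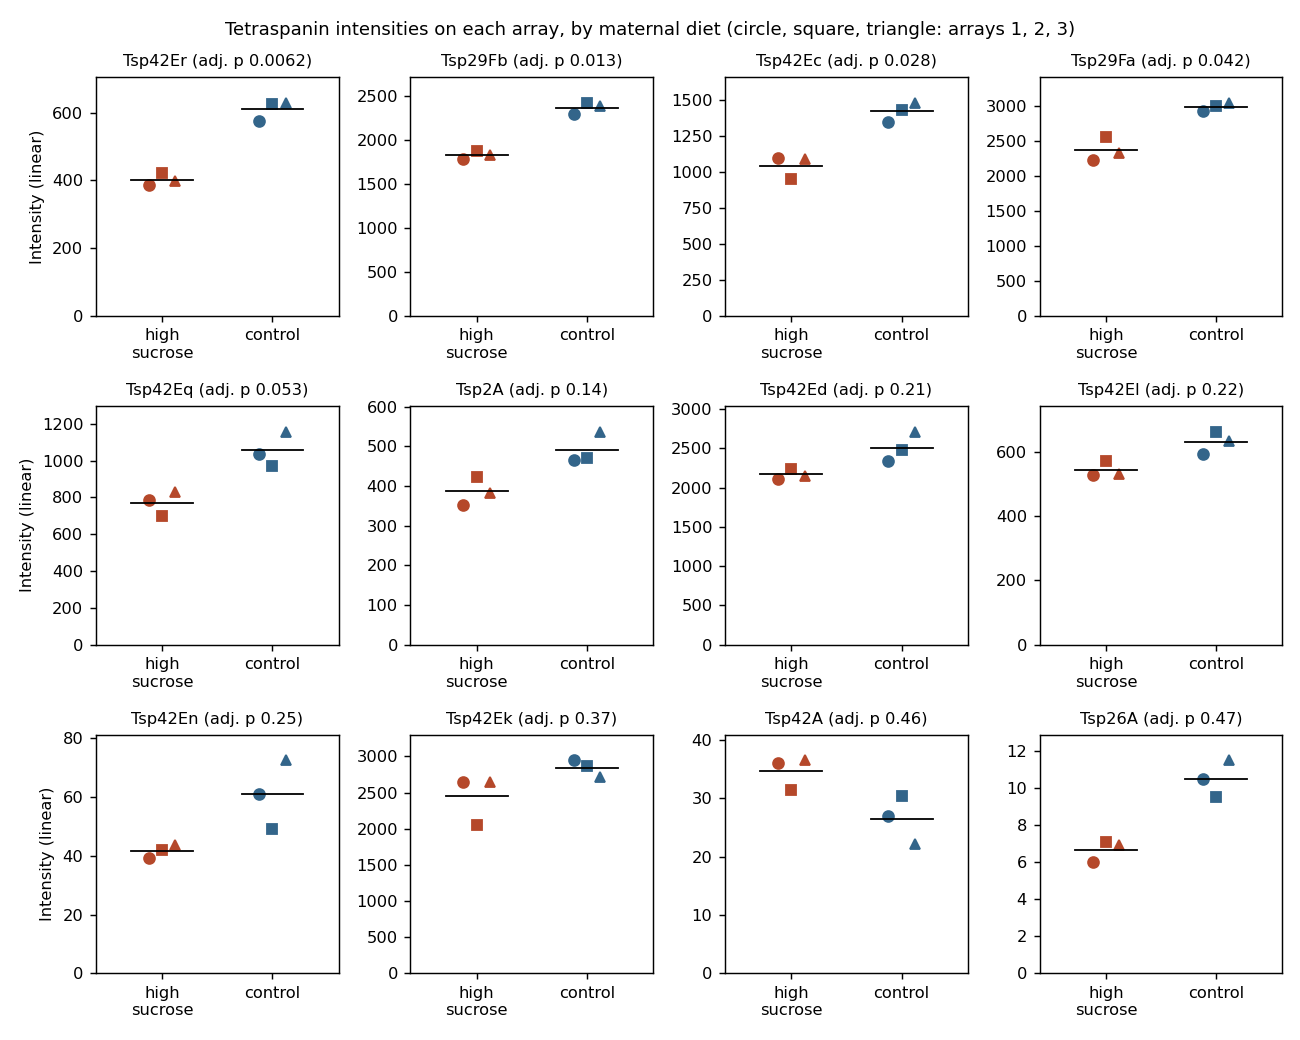
Linear intensity on each array for 12 tetraspanin genes, with high-sucrose arrays (red) left of control arrays (blue), circles, squares and triangles for arrays 1, 2 and 3, and a line at the group mean. Tsp42A is the one gene whose high-sucrose arrays lie above its control arrays; in the other 11 they lie below, and only the first 4 passed.

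Tsp2A, the tetraspanin of the smooth septate junctions that seal the midgut and the Malpighian tubules, had intensities of 353.4, 424.0 and 382.5 in high-sucrose arrays, against 465.7, 470.2 and 537.6 in control arrays. The groups did not overlap, though high-sucrose array 2 came near the lower control arrays. The difference was -0.33 ± 0.083 (95% interval -0.52 to -0.15) and did not pass (adjusted p = 0.139). It passed under 0 of the 17 settings.

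Its partners in that junction did not pass either. Ssk was at 1172 ± 62.6 in high-sucrose and 1272 ± 63.3 in control arrays (SD, n = 3 each, as for other means; adjusted p = 0.47). The scaffold mesh was at 645.2 ± 12.3 in high-sucrose and 693.3 ± 47.6 in control arrays (adjusted p = 0.552), and hoka at 1016 ± 87.8 in high-sucrose and 1143 ± 23.5 in control arrays (adjusted p = 0.334). Of 15 measured genes of smooth and pleated septate junctions 0 passed in either direction. The list's median was -0.099, beside -0.035 over all genes and -0.049 over genes in the upper 50% by mean, where 14 of the 15 lie. At an unadjusted p under 0.05, 3 of the 15 were lower, dlg1 with a log2 difference of -0.27, kune with -0.16 and hoka with -0.17, and Nrx-IV was higher with 0.17. The 3 lower are 20% of the list, beside 16.2% of genes in the upper 50% by mean.

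Tsp86D, Tsp3A and Tsp26A form the subgroup that binds the metalloprotease Kuzbanian and aids its cleavage of Notch. Tsp86D was at 48.8, 49.8 and 52.0 in high-sucrose arrays and at 59.4, 57.6 and 62.1 in control arrays. The groups did not overlap, but at this low signal the interval ran from -0.42 to 0.036 (adjusted p = 0.482). Tsp26A was at 6.01, 7.11 and 6.91 in high-sucrose arrays and at 10.5, 9.50 and 11.5 in control arrays, without overlap (adjusted p = 0.473). The lower quartiles of the arrays, at 12.2 to 14.6, all lie above these values, so the gene is close to background. Tsp3A overlapped between groups (41.9 ± 4.39 in high-sucrose and 42.4 ± 4.04 in control arrays), and its log2 difference of -0.011 was above 0 under the 3 other scalings, at 0.0031 to 0.015.

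The protease gene kuz was at 318.1 ± 11.2 in high-sucrose and 263.6 ± 25.0 in control arrays, higher in every high-sucrose array, without passing (0.26 ± 0.079; adjusted p = 0.22). Of 10 measured genes of the Notch and ADAM protease list 0 passed, 4 lay below 0 and 6 above, the median was 0.029, and at an unadjusted p under 0.05 kuz was the 1 gene higher and 0 were lower. By p, pen-2 (270.9 ± 8.20 in high-sucrose and 301.4 ± 18.8 in control arrays) and neur (120.0 ± 9.55 and 107.1 ± 3.44 in the same order) came next. Of the 17 genes written in that list 7, N, Dl and Ser among them, were not analysed here.

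Of the 10 other members outside the cluster, Tsp42A alone lay higher without overlap, at 36.2, 31.5 and 36.5 in high-sucrose arrays and at 27.0, 30.4 and 22.1 in control arrays (0.26 ± 0.13; adjusted p = 0.456). This dim gene lies on the same arm as the cluster but apart from it. Tsp97E was at 268.6, 253.9 and 249.1 in high-sucrose arrays and at 285.9, 276.1 and 276.5 in control arrays, lower without overlap by a small step (-0.11 ± 0.064; adjusted p = 0.503). Tsp33B had the highest log2 difference of the family and overlapping groups (68.7, 64.6 and 55.8 in high-sucrose and 60.2, 36.5 and 50.3 in control arrays; adjusted p = 0.469). Its interval ran from -0.045 to 0.63.

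Tsp66E, Tsp74F, Tsp39D and Tsp96F, with signals above the array medians, had log2 differences from -0.14 to 0.035 and overlapping groups. That of Tsp66E, -0.0037, was above 0 under the 3 other scalings (0.023 to 0.046). Tsp5D, Tsp47F and Tsp68C were dim in both groups, and Tsp68C lay near background at 3.33 ± 2.32 in high-sucrose and 4.41 ± 1.65 in control arrays. For such genes these arrays could not show a modest difference, as the interval of Tsp47F, from -0.39 to 0.32, shows. TM4SF, a tetraspanin with another form of name, was at 183.0, 198.2 and 211.3 in high-sucrose and 230.6, 215.4 and 200.2 in control arrays (adjusted p = 0.607). The 3 probe sets that Tsp66A shares with CG42660 and CG42661 did not pass (adjusted p from 0.254 to 0.773).

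Across the 6 arrays the genes fell into patterns that the group means hide. In high-sucrose array 2, 15 of the 32 members (46.9%) had the lowest of the 3 high-sucrose values, beside 30.2% of all genes. Tsp42Ej, Tsp42Ek, Tsp42Ep, Tsp42Ee and Tsp39D were among them, and so were Tsp42Ec and Tsp42Eq, whereas Tsp42Er, Tsp29Fb, Tsp29Fa and Tsp2A were highest in that array within their group. High-sucrose arrays 1 and 3 held the lowest value of 11 and 6 members, beside 34.9% of all genes each. The 4 genes that fell thus did not share 1 order of the high-sucrose arrays: array 2 was the lowest of the 3 for Tsp42Ec and the highest for the other 3 genes.

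**Figure D4:**
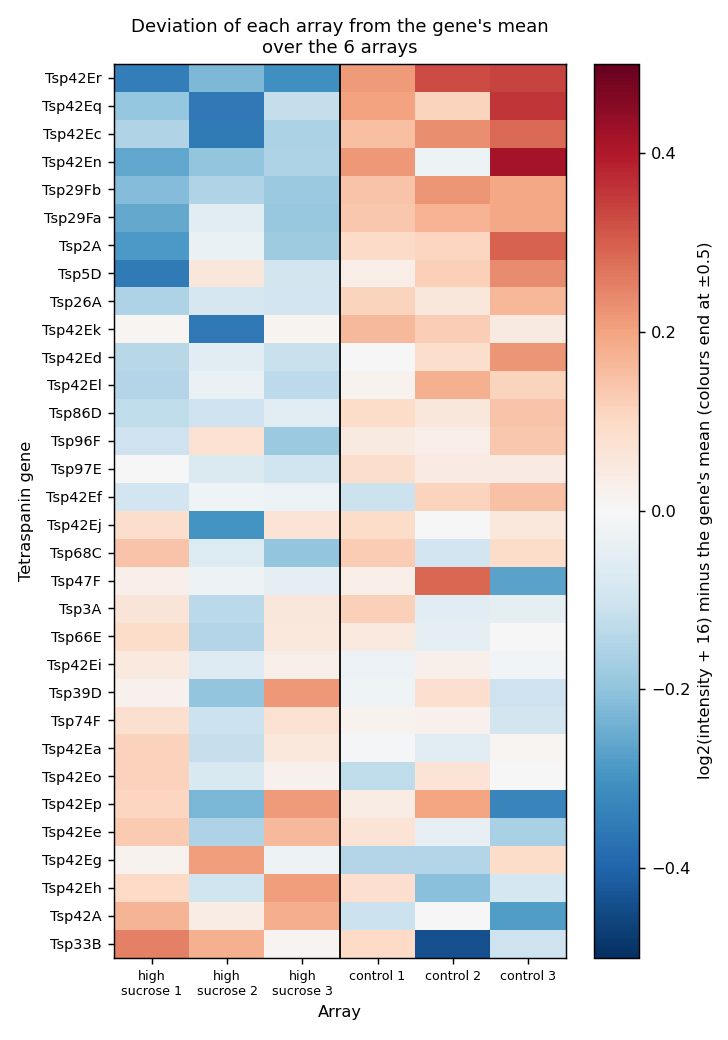
Deviation of each array from the gene's mean over the 6 arrays, on log2(intensity + 16), for the 32 tetraspanin genes ordered by log2 difference; blue is below and red above the mean, and high-sucrose arrays stand left of control arrays. The upper rows are blue in all 3 high-sucrose arrays, and lower down high-sucrose array 2 differs from arrays 1 and 3, as in Tsp42Ej and Tsp42Ep.

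Proteins that tetraspanins are known to bind or travel with were read next. Of 12 measured genes of integrins and their adhesion sites 0 passed, 4 were lower and 0 higher at an unadjusted p under 0.05, and the median log2 difference was -0.072. The 4 lower are 33.3% of the list, beside 16.2% of genes in the upper 50% by mean, where 11 of the 12 lie. ItgaPS4, an integrin alpha subunit, was at 84.1 ± 10.3 in high-sucrose and 148.1 ± 27.7 in control arrays (-0.70 ± 0.14; adjusted p = 0.0679). Itgbn, a beta subunit found in the midgut, was at 224.8 ± 7.30 in high-sucrose and 264.4 ± 11.7 in control arrays (adjusted p = 0.225), and the alpha subunit scb at 387.1 ± 1.69 in high-sucrose and 432.4 ± 19.5 in control arrays (adjusted p = 0.329). The main beta subunit, mys, was at 1173 ± 57.3 in high-sucrose and 1138 ± 35.5 in control arrays (adjusted p = 0.803).

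Of 16 measured genes of late endosomes, the ESCRT machinery that sorts membrane proteins into vesicles, and exosomes, 0 passed, 3 were lower and 0 higher at an unadjusted p under 0.05, 13 lay below 0, and the median was -0.093. The 3 lower are 18.75% of the list and the 13 below 0 are 81.25%. Among genes in the upper 50% by mean, where 15 of the 16 lie, these shares were 16.2% and 65.4%. The lowest p were those of Vps4 (392.3 ± 22.2 in high-sucrose and 453.9 ± 15.5 in control arrays; adjusted p = 0.232), Vps36 (128.8 ± 2.00 and 155.3 ± 8.82 in the same order; 0.249) and Vps20 (297.1 ± 25.7 and 351.5 ± 18.8; 0.261). The medians of this list and of the septate junction list were thus close to that of the tetraspanins, without a gene that passed.

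Markers of tissues and cell types were read as well, and whether they vary together with the tetraspanins was not tested. Of 10 midgut markers 6 were measured, and their summed intensity was 4202 to 4596 in high-sucrose and 5489 to 5854 in control arrays, without overlap. All 6 had log2 differences below 0 (median -0.35), 5 without overlap, and 0 passed, while 5 were lower at an unadjusted p under 0.05. Among genes in the upper 50% by mean, 65.4% lay below 0, 20.5% lay lower without overlap and 16.2% were lower at that p. All 6 midgut markers are in that upper 50%, and none of the 6 lay under the arrays' lower quartile. Among them mex1, expressed in the midgut epithelium, was at 1070 ± 65.9 in high-sucrose and 1347 ± 84.9 in control arrays (adjusted p = 0.0727). The trypsin gene alphaTry was at 1594 ± 84.6 in high-sucrose and 2315 ± 377 in control arrays (adjusted p = 0.0805), and Vha100-4, a subunit of the V-ATPase proton pump, at 361.5 ± 22.7 in high-sucrose and 499.7 ± 77.0 in control arrays (adjusted p = 0.127). The markers Myo31DF, Myo61F, Npc1b and lab were not analysed here. The part of the midgut in the differences of Tsp42Er, Tsp42Ec, Tsp29Fa and Tsp29Fb was not tested.

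The 7 measured Malpighian tubule markers of 9 summed to 1817 to 1836 in high-sucrose and 1928 to 1964 in control arrays (median -0.14). Of the 7, 0 passed and 3 were lower at an unadjusted p under 0.05. These 3 are 42.9% of the list, beside 16.2% of genes in the upper 50% by mean, where 6 of the 7 lie. Prestin, an anion transporter of the tubules, was at 134.8 ± 1.99 in high-sucrose and 180.2 ± 13.2 in control arrays (adjusted p = 0.0855). The 11 haemocyte markers summed to 7971 to 8363 in high-sucrose and 8440 to 9522 in control arrays (median -0.091). Of these 63.6% lay below 0, beside 65.4% of genes in the upper 50% by mean, where all 11 lie. In all 4 lay above 0, and Pxn was higher without overlap (log2 difference 0.20, adjusted p = 0.28). PPO3 and He fell, which is 18.2% of the list, beside 1.52% of genes in the upper 50% by mean. At an unadjusted p under 0.05, 4 haemocyte markers were lower and 1 was higher. The 4 lower are 36.4% of the list, beside 16.2% of genes in the upper 50% by mean. PPO3 did not pass without high-sucrose array 3 (adjusted p = 0.0547) or control array 2 (0.102). He did not pass on leaving out any 1 of the 6 arrays (0.056 to 0.135). The 5 muscle and 3 neuron markers had overlapping sums and medians of 0.0056 and 0.038. All 8 testis markers lay above 0 (median 0.24), whereas 59.7% of all genes lay below 0. Their sum was 2941 to 3071 in high-sucrose and 2262 to 2654 in control arrays. Of the 8, 5 were higher without overlap, beside 6.73% of all genes. At an unadjusted p under 0.05, 5 were higher, beside 4.06% of all genes. Mst98Ca of the sperm tail rose (adjusted p = 0.0357), as did 0.0668% of all genes. It did not pass on leaving out any 1 of the 6 arrays (0.0555 to 0.151). The 6 salivary gland markers had a median of 0.13, overlapping sums and 0 calls. At an unadjusted p under 0.05, 2 of them were higher and 0 lower, beside 4.06% of all genes higher. The fat body list, with 3 of 6 genes measured, had a median of -0.10 and 0 calls. Its sum was 24510.9 to 25181.2 in high-sucrose and 25407.1 to 27705.5 in control arrays, without overlap. Of its 3 genes 2 were lower at an unadjusted p under 0.05, Lsp2 with a log2 difference of -0.13 and Fbp2 with -0.10. At that p 16.2% of genes in the upper 50% by mean were lower, and all 3 lie in that upper 50%. The part of these tissues in the tetraspanin differences was not tested.

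How far the calls rest on single arrays was read from fits without each array. The count of genes that fell was 0 without control array 2, 1 without control array 3, high-sucrose array 1 or high-sucrose array 3, 3 without control array 1 and 4 without high-sucrose array 2. Tsp42Er was the 1 gene in each of the 3 fits with 1 call. Without the intensity trend in the variances 0 tetraspanins passed, as did few genes at all: 3 probe sets lower and 1 higher, against 107 (0.57%) and 10 (0.0533%) with it. Over the fits without 1 array that of Tsp42Er lay between -0.62 and -0.56, that of Tsp29Fb between -0.39 and -0.35, that of Tsp42Ec between -0.48 and -0.37 and that of Tsp29Fa between -0.39 and -0.29.

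**Figure D5:**
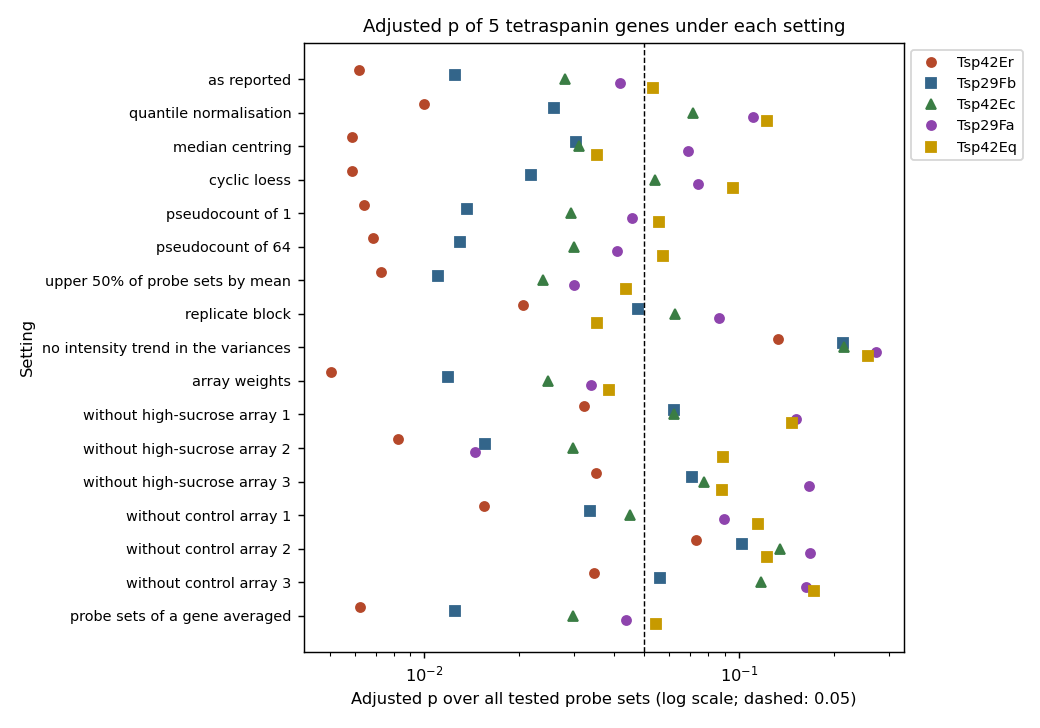
Adjusted p (log scale, over all tested probe sets) of Tsp42Er, Tsp29Fb, Tsp42Ec, Tsp29Fa and Tsp42Eq under each of 17 settings, with the threshold of 0.05 dashed. Tsp42Er lies left of the line except without control array 2 and without the intensity trend, while Tsp29Fa and Tsp42Eq cross it in many settings.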

How the data were processed

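The authors deposited linear intensities, 1 per probe set and array, from biotinylated cRNA of total RNA per the labels' protocols. For the probe summary, background correction and scaling, no step was found: not given in the sources used here. From 18952 probe sets, 183 controls were left out, and 18769 were tested. The probe table gives 1 gene to 13647 of these (11983 genes), several to 402 and none to 4720. A RefSeq gene table (Release 6 plus ISO1 MT) served for names and gene order, and updated 0 symbols. A gene's probe set with the highest mean stands for it. The number of arrays limits the precision.

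Differences were tested on log2(intensity + 16), which understates changes of dim genes, with limma 3.58.1 in R 4.3.3: a linear model of the 2 groups, empirical Bayes variances that follow intensity, and Benjamini-Hochberg adjustment over all tested probe sets (threshold 0.05). "Fell" and "rose" are used only of genes that passed. The method was tested on simulated data. The members and gene lists were chosen with earlier results of these data known. Values on every array are given for the genes that passed and for those without overlap between groups, in order of p, up to 12, and for some others; genes of other lists are named by smallest p. Lists are described by counts and medians, with no set test. The alternatives were 3 scalings, pseudocounts of 1 and 64, a filter to the upper 50% of probe sets, a replicate block, no intensity trend, array weights, averaged probe sets, each array left out, and 0.10 as the threshold. Ssk, mesh, hoka and mys were named after their values were seen.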

Additional observations from a re-analysis of the deposited data

How the results depend on the processing

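The tetraspanin genes that fell numbered 4, and 2 under quantile normalisation, 2 under cyclic loess, 0 without the intensity trend in the variances, and 0 to 4 on leaving out 1 array. The family's median log2 difference of -0.098 moved to -0.056 under quantile normalisation and to -0.059 under cyclic loess, and lay between -0.14 and -0.085 on leaving out 1 array. Genes that rose numbered 0 under all settings run, and 0 members were higher at an unadjusted p under 0.05. With the replicate block 3 fell, Tsp42Er, Tsp29Fb and Tsp42Eq. The numbers do not pair the arrays: the correlations of same-numbered deviations over all probe sets were -0.072, 0.025 and -0.014. Among members with overlapping groups the sign changed under a scaling for Tsp3A (quantile 0.0031, median centring 0.015, cyclic loess 0.0080) and for Tsp66E (quantile 0.046, median centring 0.023, cyclic loess 0.042, array weights 0.0088), and with array weights for Tsp47F (0.012). On leaving out 1 array it also changed for 10 members, whose log2 differences ranged from -0.046 to 0.053 (Tsp3A), -0.050 to 0.069 (Tsp66E), -0.18 to 0.10 (Tsp47F), -0.17 to 0.028 (Tsp42Ej), -0.012 to 0.10 (Tsp42Ea), -0.0014 to 0.098 (Tsp74F), -0.013 to 0.088 (Tsp42Eo), -0.087 to 0.19 (Tsp42Ep), -0.074 to 0.13 (Tsp39D) and -0.010 to 0.045 (Tsp42Ei). The cause of these changes was not tested. Genes near background, such as Tsp26A and Tsp68C, are limited by signal.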
